A study of Caenorhabditis elegans with 15 samples.

Results

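The *pals-* genes of the nematode *Caenorhabditis elegans* encode proteins that share the ALS2CR12 signature, and their levels were followed here across 2 strains and 2 temperatures. Members were taken by name: every gene whose deposited symbol starts with *pals-* was included, which gave 38 of the 21882 genes in the count tables. The rule used names and no measured values.

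Polyadenylated RNA was sequenced from whole young adults of the mutant *fbxa-215(syb4404)* (strain SX3678) and of the wild-type strain N2. *fbxa-215* encodes an F-box protein, the kind of adapter that brings substrates to ubiquitin ligases, and *syb4404* is a deletion in it that was outcrossed to N2. At 20 °C there were 4 libraries of mutants and 4 of N2, collected about 48 h after plating. At 25 °C there were 3 libraries of mutants and 4 of N2, collected about 36 h after plating. All animals were synchronized by bleaching and hatching in buffer, and were fed HB101 bacteria. The mutants were represented by 1 allele in 1 strain, and the 25 °C animals were a separate batch, so temperature, time after plating and batch cannot be told apart. The labels do not say that replicates were separate cultures, and p-values therefore measure only the spread between these samples.

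The family is best known for the intracellular pathogen response (IPR), a transcriptional program that *C. elegans* mounts against viruses and microsporidia that infect its intestine, and that prolonged heat stress also triggers. *pals-22* and *pals-25* are opposing regulators that share an operon: *pals-22* keeps the response off and *pals-25* turns it on. *pals-17* is a further repressor, *pals-16* and *pals-20* act as activators, and *pals-5* is a response gene whose promoter is widely used as a reporter. For most of the other members no separate function is assumed here.

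The library totals ran from 10842744 to 28391866 estimated counts, and 3 counts corresponded to 0.103 to 0.278 CPM (counts scaled to a common library size), depending on the library. The targeted gene *fbxa-215* had 0 counts in 6 of the 7 mutant libraries and 2 counts in the other, against 1364 to 2297 counts in the 8 N2 libraries. Of 6 intestine markers, 3 were higher in mutants at 20 °C, and at 25 °C 4 were higher and 1 lower. Of 6 oocyte markers, 6 were lower in mutants at 20 °C and 2 at 25 °C. By the test given below, 13.5% of all tested genes were called between strains at 20 °C and 12.1% at 25 °C. Of those called, 57.2% at 20 °C and 57.6% at 25 °C were higher in mutants, and the rest lower. In whole animals, fewer cells of a type and less RNA per cell cannot be told apart.

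The 38 members lie on 4 chromosomes of the WBcel235 assembly, all annotated as protein-coding. Chromosome I holds 15, chromosome III 14, chromosome V 7 and chromosome IV 2. Joining members less than 50 kb apart gave 11 groups of neighbours. The largest has 14 genes within 61.3 kb of chromosome I (13083321 to 13144623), with *pals-5* and *pals-6* among them. On chromosome III, *pals-24*, *pals-23*, *pals-22* and *pals-25* lie in that order, all on the plus strand, between 120435 and 137975. A second group on the same chromosome, from 1376945 to 1406263, holds 7 genes, with *pals-16*, *pals-17* and *pals-20*. *pals-26*, *pals-27* and *pals-28* lie from 4375154 to 4387757 on chromosome III, and *pals-37*, *pals-39* and *pals-38* from 12437440 to 12446995 on chromosome V. *pals-29* and *pals-30* form a pair on chromosome IV, and *pals-1*, *pals-31*, *pals-32*, *pals-33* and *pals-34* lie alone.

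Most of the family was barely expressed in these animals. *pals-7* and *pals-10* had 0 counts in all 15 libraries, and 9 members had 1 to 10 counts over all libraries together. At most 3 counts in every library were found for 13 members (34.2%), against 22.9% of all genes. At least 10 counts in every library were reached by 7 members (18.4%), against 53.6% of all genes. Per length of exon, the median member stood at 0.205 CPM per kb, against 3.47 CPM per kb over 19637 protein-coding genes. These are mean levels over the 15 libraries.

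The gene *pals-5* belonged to the silent part of the family. It had 1 count in replicate 2 of the mutants at 20 °C and 2 and 1 counts in replicates 2 and 3 of N2 at 25 °C. All other libraries had 0 counts, so the totals were 1 count over 7 mutant libraries and 3 counts over 8 N2 libraries. Its level was at or below the 3-count limit in every library, and no difference between strains or temperatures was detectable at this depth. Its neighbours *pals-2*, *pals-9*, *pals-11*, *pals-12*, *pals-13* and *pals-15* had totals of 1 to 8 counts over the 15 libraries.

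The levels were dominated by a few genes on chromosome III. *pals-24* was the highest member per length at 7.92 CPM per kb, the 60.1 percentile of protein-coding genes, followed by *pals-23* at 4.67 and *pals-17* at 4.22 CPM per kb. Next came *pals-34* at 3.21, *pals-22* at 2.55, *pals-25* at 2.03 and *pals-6* at 1.47 CPM per kb. The 4 genes *pals-22* to *pals-25* held 50.2% of the 7924 counts of the family, while the 14 neighbours on chromosome I held 8.87%. The regulators *pals-16* and *pals-20* were low, at 1.09 and 0.230 CPM per kb. The order was not the same in all groups: *pals-17* stood above *pals-23* in both 20 °C groups, narrowly in mutants (4.06 and 3.89 CPM per kb), and below it in both 25 °C groups.

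**Figure D1:**
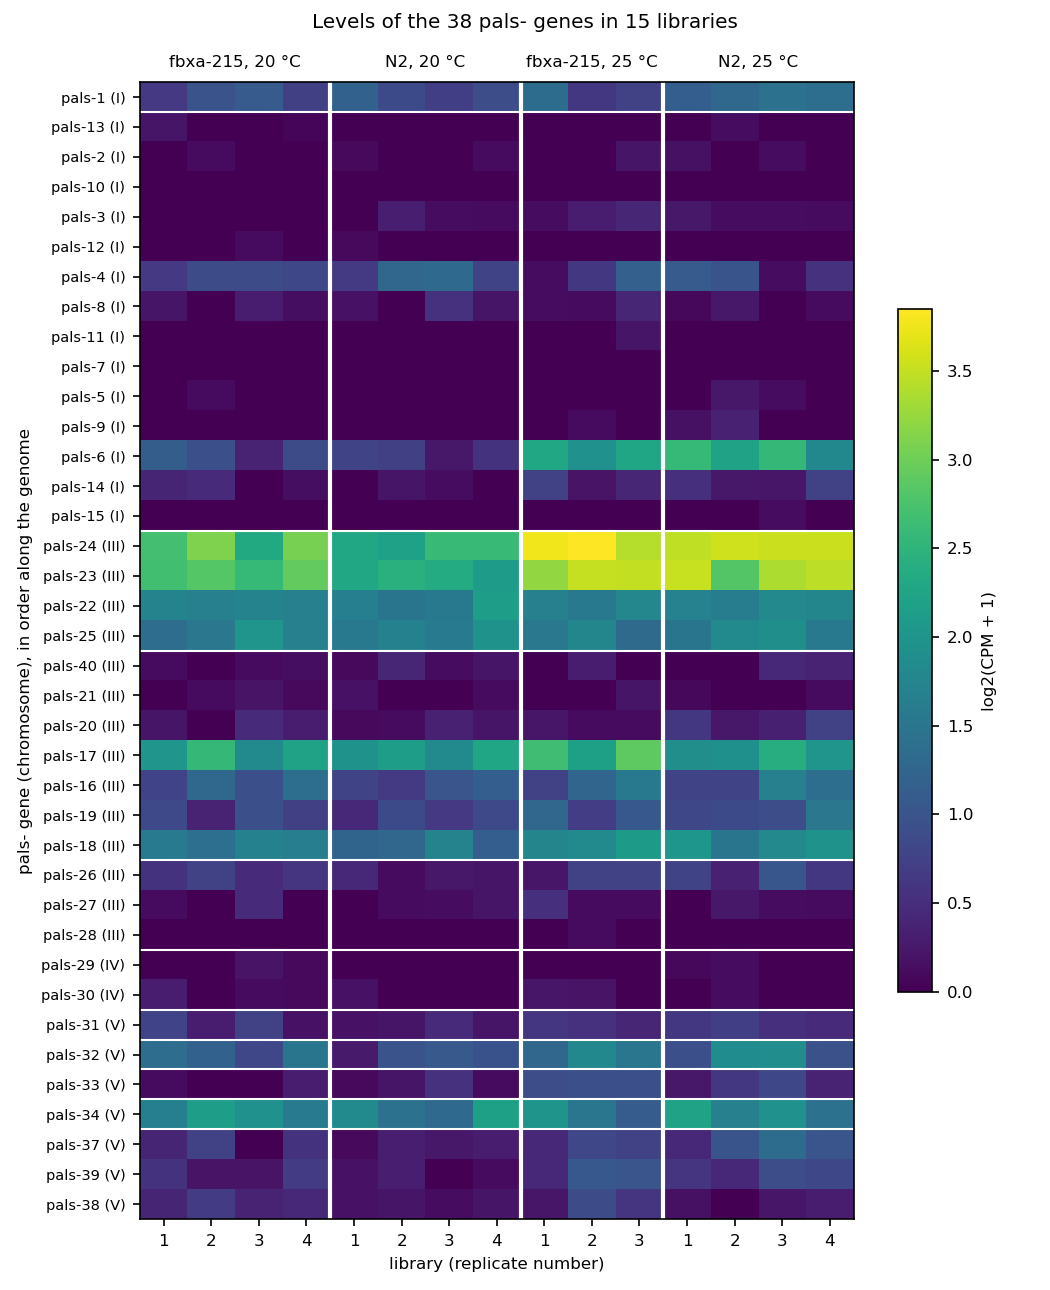
Level of each of the 38 *pals-* genes (rows, in order along the genome, with the chromosome) in each of the 15 libraries (columns), as log2(CPM + 1). White lines part the 4 groups of libraries and the 11 groups of neighbours. The rows of *pals-24* and *pals-23* are the brightest, and *pals-7* and *pals-10* are at 0 throughout.

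**Figure D2:**
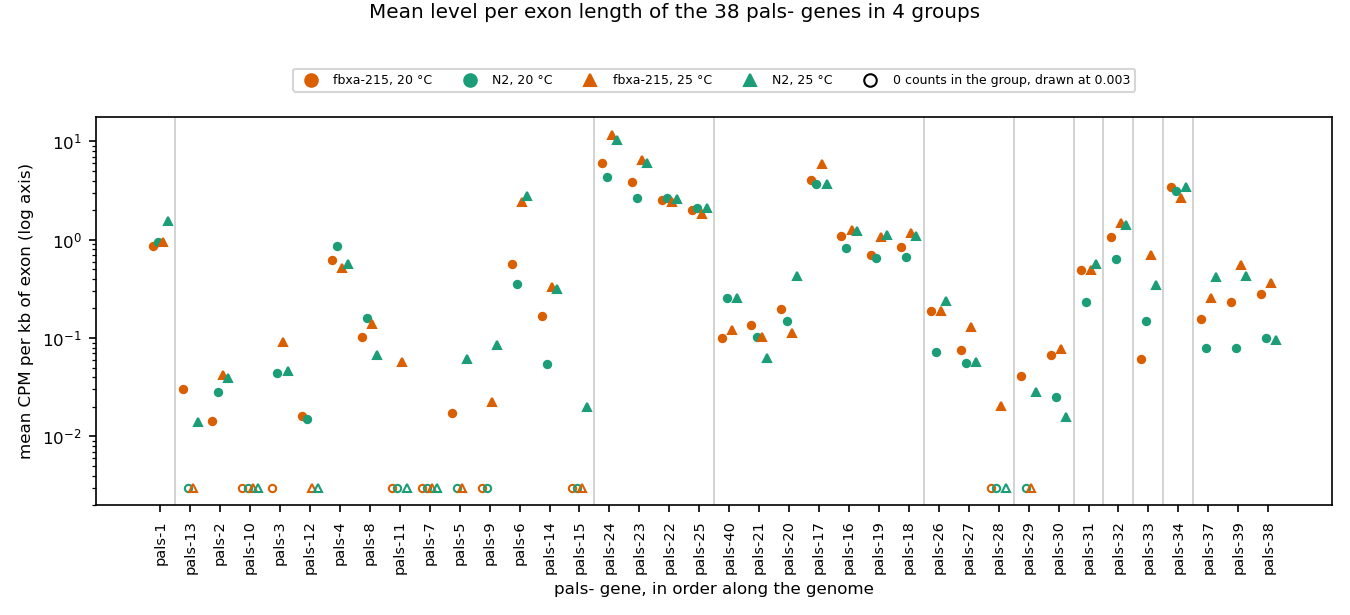
Mean CPM per kb of exon of each member in the 4 groups, on a log axis, in order along the genome, with grey lines between groups of neighbours. Open symbols mark groups with 0 counts and are drawn at 0.003. *pals-24*, *pals-23* and *pals-17* stand highest, and most of the 14 neighbours on chromosome I lie near or below 0.1.

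Summed over the 38 members, the family stood at 33.3 ± 3.23 CPM in mutants and 26.9 ± 2.43 CPM in N2 at 20 °C (SD, n = 4 each). At 25 °C the sum was 50.2 ± 1.15 CPM in mutants (SD, n = 3) and 47.9 ± 4.32 CPM in N2 (SD, n = 4). The ranges of mutants and N2 just overlapped at 20 °C (30.0 to 36.5 CPM in mutants and 24.4 to 30.2 CPM in N2) and overlapped widely at 25 °C (48.9 to 51.2 CPM in mutants and 43.1 to 53.5 CPM in N2). Both 25 °C groups lay above both 20 °C groups without overlap. *pals-23* and *pals-24* together contributed 28 to 47.2% of the sum in a library. Without them the other 36 members summed to 21.4 ± 1.13 CPM in mutants and 18.5 ± 2.24 CPM in N2 at 20 °C, and to 28.6 ± 2.35 CPM in mutants and 28.3 ± 3.53 CPM in N2 at 25 °C.

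Whether loss of *fbxa-215* moved the family was asked first at 20 °C, with edgeR's quasi-likelihood F-test and Benjamini-Hochberg adjustment over all tested genes (FDR). A gene was called at an FDR under 0.05. A minimum of counts was needed for a test, and 12 of the 38 members passed it. *pals-23* alone was called, higher in mutants, so 1 of 12 members was called where 13.5% of all tested genes were (1769 of 13127). By direction, 1 member was higher and 0 lower, and 7.71% of all genes were higher. An FDR under 0.05 together with a fold above 2 was reached by 0 members, against 1.49% of all genes. Leaving out 1 library moved the count of all genes called over 579 (without mutant replicate 2) to 2247 (without N2 replicate 4). The median log2 fold change was 0.16 over the 12 members and 0.015 over all genes.

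*pals-23* had 5.43, 6.13, 5.0 and 6.58 CPM in the mutant libraries at 20 °C, against 3.90, 4.45, 4.16 and 3.38 CPM in N2. Every mutant library lay above every N2 library. The log2 fold change was 0.57 ± 0.16 (SE), a fold of 1.48, with FDR = 0.036. This call rested on the full set of libraries: with 1 library removed at a time, 7 of 8 fits lost it, and it remained only without mutant replicate 3. The FDR in those fits ran from 0.033 to 0.092 and the log2 fold change from 0.49 to 0.63.

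Its neighbour *pals-24* had 5.51, 7.57, 4.07 and 7.37 CPM in mutants, against 3.97, 3.62, 5.09 and 5.07 CPM in N2. Mutant replicate 3 lay among the N2 libraries, and the groups overlapped. The log2 fold change of *pals-24* was 0.49 ± 0.21 (SE, FDR = 0.13). Without mutant replicate 3, *pals-24* passed at FDR = 0.048.

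The 2 opposing regulators next to them were not called at 20 °C. *pals-22* had 2.31, 2.19, 2.31 and 2.19 CPM in mutants, against 2.17, 1.81, 1.94 and 3.46 CPM in N2. N2 replicate 4 stood above all mutant libraries and the other 3 N2 libraries below them. The log2 fold change was -0.05, with a 95% interval of -0.57 to 0.47. *pals-25* had 1.60, 1.89, 3.00 and 2.19 CPM in mutants, against 1.95, 2.22, 2.04 and 2.90 CPM in N2, and the groups overlapped. Its log2 fold change was -0.05, with an interval of -0.59 to 0.48.

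The repressor *pals-17* had 3.03, 4.92, 2.54 and 3.63 CPM in mutants, against 2.89, 3.46, 2.59 and 3.78 CPM in N2 at 20 °C. The groups overlapped, and the log2 fold change was 0.17 ± 0.23 (SE, FDR = 0.64). The activator *pals-16* had 0.718, 1.44, 0.922 and 1.61 CPM in mutants, against 0.722, 0.577, 1.02 and 1.21 CPM in N2, also with overlap (log2 fold change 0.48 ± 0.35, FDR = 0.37). *pals-20* had 2, 0, 5 and 7 counts in mutants (0.160, 0, 0.384 and 0.240 CPM), against 1, 1, 3 and 2 counts in N2 (0.0722, 0.0824, 0.278 and 0.161 CPM). It was too low to be tested. The log2 fold changes of the 12 tested members ran from -0.42 for *pals-4* to 0.81 for *pals-32*, which had an interval of -0.11 to 1.73.

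Among the members with too few counts for a test, *pals-38* and *pals-26* also separated the strains at 20 °C. *pals-38* had 4, 8, 4 and 10 counts in mutants (0.319, 0.605, 0.307 and 0.343 CPM), against 2, 2, 1 and 2 counts in N2 (0.144, 0.165, 0.0925 and 0.161 CPM). *pals-26* had 0.479, 0.681, 0.384 and 0.514 CPM in mutants, against 0.361, 0.0824, 0.185 and 0.161 CPM in N2. With *pals-23*, 3 of the 32 members with a count separated the strains without overlap, all with the mutant libraries above, against 15.5% of the 19155 genes with a count. Exons of *pals-26* overlap another counted gene on the same strand, so its counts are uncertain. At 25 °C, *pals-38* had 2, 11 and 6 counts in mutants, against 2, 0, 2 and 3 counts in N2, and the groups overlapped.

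At 25 °C the same test was open to 16 members, and 0 were called, where 12.1% of 13510 genes were. The count of all genes called ran from 474 (without mutant replicate 3) to 3518 (without mutant replicate 1) when 1 library was left out. At an unadjusted p under 0.05 there were 2 members, *pals-17* and *pals-33*, against 29.2% of all genes, and DESeq2 called 0. The median log2 fold change was -0.01 over the members and 0.004 over all genes, with 8 members above and 8 below 0. Leaving out 1 library gave 0 calls except without mutant replicate 1, where *pals-1* was called. *pals-1* had 1.57, 0.540 and 0.671 CPM in mutants, against 1.22, 1.45, 1.74 and 1.63 CPM in N2. With all libraries its log2 fold change was -0.70 ± 0.39 (SE, FDR = 0.25).

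The repressor *pals-17* had 5.33, 3.55 and 6.46 CPM in mutants at 25 °C, against 2.74, 2.82, 4.27 and 3.03 CPM in N2. Mutant replicates 1 and 3 were above all N2 libraries, and replicate 2 was among them. The log2 fold change was 0.67 ± 0.24 (SE), with FDR = 0.082, so the difference did not pass. *pals-33* had 0.874, 0.927 and 0.923 CPM in mutants (10, 12 and 11 counts), against 0.183, 0.545, 0.784 and 0.311 CPM in N2 (3, 6, 9 and 4 counts). Its groups did not overlap, and the log2 fold change was 1.05 ± 0.48 (SE, FDR = 0.16). *pals-33* passed the count minimum through its mutant libraries alone.

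The pair of highest members showed no called difference at 25 °C. *pals-23* had 8.39, 10.4 and 10.3 CPM in mutants, against 10.5, 6.09, 9.40 and 10 CPM in N2, with a log2 fold change of 0.10 (95% interval -0.28 to 0.48). *pals-24* had 12.6, 13.4 and 9.65 CPM in mutants, against 10.1, 10.9, 10.6 and 10.6 CPM in N2, with a log2 fold change of 0.17 (interval -0.13 to 0.47). In both genes 1 library stood below the rest, N2 replicate 2 for *pals-23* and mutant replicate 3 for *pals-24*, and the groups overlapped.

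*pals-22* had 2.19, 1.93 and 2.43 CPM in mutants at 25 °C, against 2.25, 2.09, 2.52 and 2.41 CPM in N2. *pals-25* had 1.92, 2.39 and 1.51 CPM in mutants, against 1.83, 2.54, 2.79 and 1.94 CPM in N2. The groups of both overlapped, and the 95% intervals of the log2 fold change were -0.61 to 0.43 for *pals-22* and -0.81 to 0.39 for *pals-25*. *pals-16* had 0.699, 1.39 and 1.93 CPM in mutants, against 0.730, 0.727, 2.18 and 1.63 CPM in N2, a log2 fold change of 0.05 with an interval of -0.91 to 1.02.

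*pals-20* had its higher values in N2 at 25 °C, with 2, 1 and 1 counts in mutants (0.175, 0.0772 and 0.0839 CPM), against 9, 2, 3 and 9 counts in N2 (0.548, 0.182, 0.261 and 0.699 CPM). The groups did not overlap, but most values were at or under 3 counts and *pals-20* was not tested. Its exons overlap a gene on the opposite strand, and the libraries did not keep strand, so reads of the pair cannot be separated. *pals-20* and *pals-33* were the 2 of 35 members with a count that separated the strains at 25 °C, against 19.2% of 19080 genes.

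**Figure D3:**
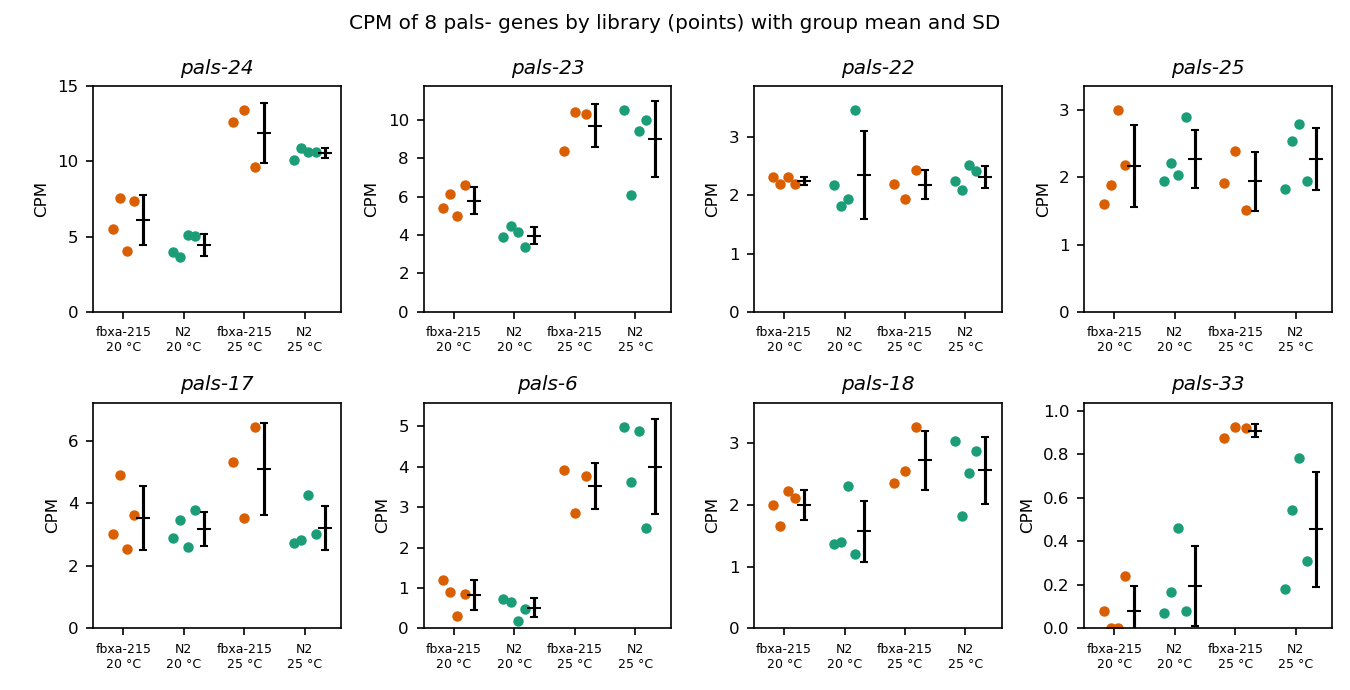
CPM of 8 members in each library (points, mutants in orange, N2 in green), with the group mean and SD (black, right of the points). *pals-24*, *pals-23* and *pals-6* stand higher in both 25 °C groups than at 20 °C, while *pals-22* and *pals-25* lie between 1.51 and 3.46 CPM in all 15 libraries.

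More members were called between temperatures. In N2, 6 of 16 tested members were called between 25 and 20 °C, all higher at 25 °C: *pals-6*, *pals-18*, *pals-23*, *pals-24*, *pals-37* and *pals-39*. Of all 14000 genes tested, 45.1% were called and 23% were called higher. Both an FDR under 0.05 and a fold above 2 were reached by 5 of the 16 members, against 6.59% of all genes. The median log2 fold change was 0.75 over the 16 members and 0.067 over all genes. In mutants, 4 of 16 were called, all higher at 25 °C: *pals-6*, *pals-23*, *pals-24* and *pals-33*. There 25.5% of all genes were called and 13.6% called higher, and 2 members reached both an FDR under 0.05 and a fold above 2, against 3.17% of genes. The median log2 fold change in mutants was 0.49 over the members and 0.043 over all genes. *pals-33*, *pals-37* and *pals-39* reached the count minimum in 0 of the 20 °C libraries, so they could pass only by being higher at 25 °C. *pals-6* reached it in 0 N2 libraries at 20 °C. These shares and medians over the members therefore do not measure a shift of the family.

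*pals-6*, in the group of 14 on chromosome I, differed most among the members called in both strains. It had 3.93, 2.86 and 3.78 CPM in mutants at 25 °C, against 1.2, 0.908, 0.307 and 0.857 CPM at 20 °C. In N2 it had 4.99, 3.63, 4.88 and 2.49 CPM at 25 °C, against 0.722, 0.659, 0.185 and 0.483 CPM at 20 °C. No 25 °C library overlapped a 20 °C library. The log2 fold change of *pals-6* was 2.09 ± 0.34 (SE, FDR = 0.00028) in mutants, a fold of 4.25, and 2.91 ± 0.36 (SE, FDR = 6.7e-06) in N2, a fold of 7.53.

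The other 13 genes of that group on chromosome I stayed low at both temperatures. Without *pals-6* they summed to 1.55 ± 0.914 CPM at 25 °C and 1.19 ± 0.138 CPM at 20 °C in mutants, and to 1.5 ± 0.683 CPM at 25 °C and 1.46 ± 0.604 CPM at 20 °C in N2. With *pals-6* the sums were 5.07 ± 1.23 CPM at 25 °C and 2.0 ± 0.421 CPM at 20 °C in mutants, and 5.5 ± 1.33 CPM at 25 °C and 1.98 ± 0.487 CPM at 20 °C in N2 (SD, n = 3 for mutants at 25 °C and 4 otherwise). Of the 13, only *pals-4* was tested, at a log2 fold change of -0.26 ± 0.62 in mutants and -0.56 ± 0.55 in N2 (SE, FDR = 0.79 and 0.43). Its exons overlap those of *pals-3* on the opposite strand.

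*pals-23* and *pals-24* were higher at 25 °C in both strains. With the library values given above, no 25 °C library of *pals-23* or *pals-24* overlapped a 20 °C library of its strain. For *pals-23* the log2 fold change was 0.74 ± 0.17 (SE, FDR = 0.0045) in mutants and 1.19 ± 0.17 (SE, FDR = 3.2e-05) in N2. For *pals-24* it was 0.94 ± 0.18 (SE, FDR = 0.0011) in mutants and 1.25 ± 0.18 (SE, FDR = 3.4e-05) in N2. The values correspond to folds of 1.67 and 2.28 for *pals-23* and of 1.92 and 2.38 for *pals-24*, in mutants and in N2 each time.

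The 2 genes that follow on the same strand, with the library values given above, were not called between temperatures. *pals-22* had log2 fold changes of -0.04 (95% interval -0.52 to 0.44) in mutants and -0.02 (-0.47 to 0.43) in N2. *pals-25* had -0.16 (-0.71 to 0.40) in mutants and -0.01 (-0.52 to 0.49) in N2. In every comparison of strains or temperatures the interval of both genes spanned 0. The ratio of *pals-23* plus *pals-24* counts to *pals-22* plus *pals-25* counts was 5.06 to 5.52 at 25 °C and 1.71 to 3.35 at 20 °C in mutants. In N2 it was 3.67 to 5.06 at 25 °C and 1.33 to 2.33 at 20 °C. The ratio was thus higher in every 25 °C library than in any 20 °C library. It restates the values of the 4 genes and is no separate result, since *pals-23* and *pals-24* were already called higher at 25 °C.

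*pals-18*, in the second chromosome III group, had 3.04, 1.82, 2.52 and 2.88 CPM in N2 at 25 °C, against 1.37, 1.40, 2.31 and 1.21 CPM at 20 °C. N2 replicate 2 at 25 °C lay below replicate 3 at 20 °C, so the groups overlapped. The log2 fold change was 0.73 ± 0.24 (SE, FDR = 0.020). The call was lost without N2 replicate 1, 2 or 4 at 20 °C or replicate 1 at 25 °C, with FDR up to 0.067. In mutants *pals-18* had 2.36, 2.55 and 3.27 CPM at 25 °C, against 2.0, 1.66, 2.23 and 2.12 CPM at 20 °C, without overlap but with FDR = 0.20 (log2 fold change 0.44 ± 0.25). Exons of *pals-18* and *pals-19* overlap on the same strand, and reads could have been split between them.

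The regulators in that group were not called between temperatures. *pals-17*, with the library values given above, had a log2 fold change of 0.53 ± 0.24 (SE, FDR = 0.12) in mutants and 0.01 ± 0.24 (SE, FDR = 0.99) in N2. Without mutant replicate 2 at 20 °C, *pals-17* passed in mutants at FDR = 0.049. *pals-16* had log2 fold changes of 0.15 ± 0.43 in mutants and 0.56 ± 0.43 in N2 (SE, FDR = 0.84 and 0.29).

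On chromosome V, *pals-33* was called in mutants and *pals-37* and *pals-39* in N2. *pals-33* had 10, 12 and 11 counts in mutants at 25 °C, against 1, 0, 0 and 7 counts at 20 °C (0.0798, 0, 0 and 0.240 CPM). The groups did not overlap, and the log2 fold change was 2.93 ± 0.68 (SE, FDR = 0.0045). Replicate 4 held 7 of the 8 counts at 20 °C, and without it the log2 fold change was 4.67. In N2 it had 3, 6, 9 and 4 counts at 25 °C, against 1, 2, 5 and 1 counts at 20 °C, and the groups overlapped (log2 fold change 1.2 ± 0.71, FDR = 0.18).

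*pals-37* had 0.365, 1.00, 1.57 and 1.01 CPM in N2 at 25 °C, against 0.0722, 0.247, 0.185 and 0.241 CPM at 20 °C. *pals-39* had 0.487, 0.363, 0.871 and 0.777 CPM in N2 at 25 °C, against 0.144, 0.247, 0 and 0.0804 CPM at 20 °C. Neither overlapped between temperatures. The log2 fold changes were 2.33 ± 0.65 for *pals-37* and 2.27 ± 0.68 for *pals-39* (SE, FDR = 0.0075 and 0.011). With N2 libraries alone in the fit, *pals-37* and *pals-39* had too few counts to be tested and 4 members were called. In mutants the log2 fold changes were 0.63 ± 0.63 for *pals-37* and 1.11 ± 0.54 for *pals-39* (SE, FDR = 0.49 and 0.14).

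The mutant libraries of *pals-37* and *pals-39* were spread at both temperatures. *pals-37* had 4, 10 and 8 counts in mutants at 25 °C (0.350, 0.772 and 0.671 CPM), against 4, 9, 0 and 14 counts at 20 °C (0.319, 0.681, 0 and 0.480 CPM). *pals-39* had 4, 14 and 12 counts at 25 °C (0.350, 1.08 and 1.01 CPM), against 6, 2, 2 and 17 counts at 20 °C (0.479, 0.151, 0.154 and 0.583 CPM). Replicate 4 at 20 °C was the deepest library, at 28391866 counts. *pals-33*, *pals-37* and *pals-39* reached the count minimum in 0 of the 20 °C libraries and were tested only through the 25 °C ones, so members of this kind could pass only by being higher there. *pals-6* reached the minimum in 0 N2 libraries at 20 °C.

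**Figure D4:**
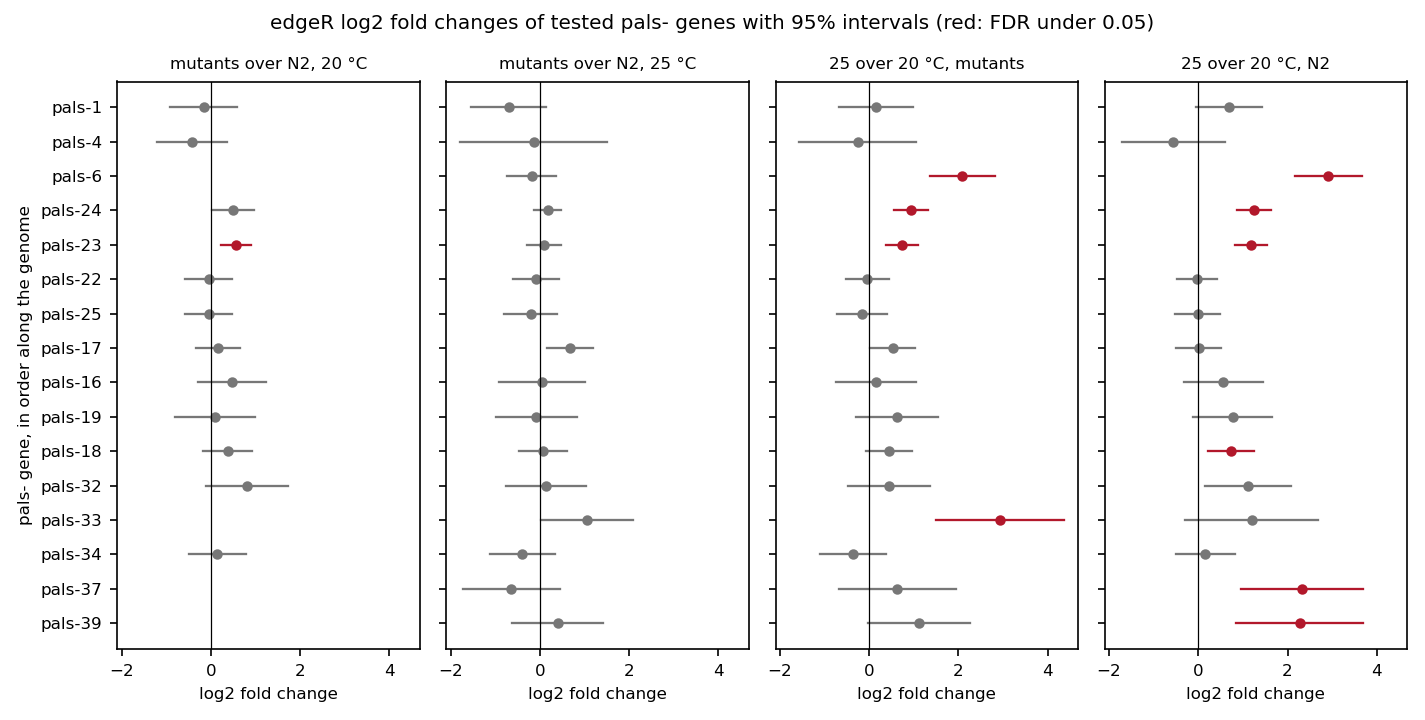
Log2 fold changes of the tested members with 95% intervals in 4 comparisons, mutants over N2 at 20 and 25 °C and 25 over 20 °C in mutants and in N2, with an FDR under 0.05 in red. 12 members were tested at 20 °C and 16 in the other panels. Between strains only *pals-23* at 20 °C is red, and between temperatures all red points lie above 0.

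Whether the change with temperature differed between strains was tested as an interaction. 0 of the 16 members passed, where 1.46% of 14000 genes did, and at an unadjusted p under 0.05 there were also 0, against 24.6% of genes. DESeq2 called 0 members as well. Leaving out 1 library moved the 205 calls over all genes to between 12 and 1604, with 0 members called each time. The lowest count came without the third 25 °C library of mutants and the highest without their deepest 20 °C library. The smallest FDR was 0.26, for *pals-23* at -0.45 (95% interval -0.96 to 0.06) and for *pals-37* at -1.70 (-3.63 to 0.24) on the log2 scale. *pals-33* stood at 1.73 (-0.48 to 3.94), *pals-6* at -0.83 (-1.91 to 0.26) and *pals-17* at 0.52 (-0.19 to 1.24). Calls made in 1 strain and not in the other are therefore not shown to differ between strains. The 4 comparisons share libraries, since each group enters 2 of them.

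Among all members with a count, 6 of 35 separated 25 from 20 °C without overlap in mutants and 7 of 34 in N2, all with the 25 °C libraries above. Of all genes with a count, 25.0% did so in mutants and 30.7% in N2. The untested genes among these were *pals-3* in mutants and *pals-14* and *pals-31* in N2. *pals-3* had 1, 3 and 4 counts in mutants at 25 °C, against 0 counts in the 4 libraries at 20 °C. *pals-14* had 7, 2, 2 and 9 counts in N2 at 25 °C, against 0, 2, 1 and 0 counts at 20 °C, and *pals-31* had 9, 7, 5 and 5 counts, against 2, 2, 4 and 2 counts. These counts lie close to the 3-count limit. In all, the 22 members tested in no comparison held 6.07% of the family's counts.

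Response genes outside the family were also near the limit of detection. *F26F2.1*, *F26F2.3*, *F26F2.4* and *eol-1*, which rise with *pals-5* in infected animals, had at most 10 counts in a library, and 0 of the 4 could be tested. Together they summed to 0.0757 to 0.480 CPM in mutants and 0.330 to 0.804 CPM in N2 at 20 °C, and to 0.350 to 0.923 CPM in mutants and 0.791 to 1.17 CPM in N2 at 25 °C. *eol-1* had at most 0.154 CPM in mutants at 25 °C, against 0.389 to 0.545 CPM in N2, with up to 7 counts. At 20 °C *eol-1* had at most 0.16 CPM in mutants and 0.0824 CPM in N2, so the temperatures overlapped in mutants and not in N2. *chil-27*, a marker of the response to oomycetes in which *pals-22* and *pals-25* also take part, stayed at or below 0.161 CPM in every library.

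Of 4 known regulators of the response, 1 was higher in mutants at 20 °C and 0 were called at 25 °C. Of all genes, 7.71% were called higher at 20 °C, and 12.1% were called in either direction at 25 °C. *pnp-1*, a purine nucleoside phosphorylase gene that represses the response, averaged 120 ± 13.5 CPM in mutants and 97.2 ± 9.10 CPM in N2 at 20 °C (SD, n = 4 each). Its log2 fold change was 0.32 ± 0.09 (SE, FDR = 0.044). The groups overlapped, with 101 to 130 CPM in mutants and 87.1 to 109 CPM in N2. *drh-1*, the sensor of viral RNA, was lower at 25 than at 20 °C in both strains, by -0.30 in mutants and -0.38 in N2 on the log2 scale (FDR = 0.0024 and 6.8e-05). *zip-1*, a transcription factor of the response, was higher at 25 °C by 0.56 in mutants and 0.41 in N2 (FDR = 0.00028 and 0.00098). *pnp-1* was also higher at 25 °C in both strains, and *sta-1*, a further repressor, in N2 alone, a difference that the interaction did not call (FDR = 0.77).

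The response also includes parts of a cullin-RING ubiquitin ligase, and 5 of 7 listed genes were tested. Between strains 1 of the 5 was higher in mutants at 20 °C and 2 at 25 °C, where 13.5% and 12.1% of all genes were called. The Skp1-related gene *skr-3* averaged 35.8 ± 5.80 CPM in mutants and 25.3 ± 0.863 CPM in N2 at 20 °C (SD, n = 4 each), and every mutant library lay above every N2 library. Its log2 fold change was 0.52 ± 0.11 (SE, FDR = 0.014) at 20 °C and 0.42 ± 0.11 (SE, FDR = 0.024) at 25 °C. *rcs-1*, the RING subunit, was higher in mutants at 25 °C (0.49 ± 0.14, FDR = 0.035) and stood at 0.12 ± 0.17 at 20 °C (FDR = 0.65). The cullin *cul-6* was not called in any comparison, with log2 fold changes between strains of 0.02 at 20 °C and -0.03 at 25 °C. The F-box genes *fbxa-75* and *fbxa-158* had at most 8 counts and were not tested. In mutants *fbxa-158* had 0.309 to 0.699 CPM at 25 °C, against 0 to 0.103 CPM at 20 °C. In N2 it had 0.182 to 0.426 CPM at 25 °C, against 0 to 0.0804 CPM at 20 °C. The temperatures did not overlap, which held for 25.0% of genes with a count in mutants and 30.7% in N2.

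Between temperatures, *skr-4* and *skr-5* were higher at 25 °C in both strains, as *pals-6*, *pals-23* and *pals-24* were. *skr-5* averaged 6.30 ± 2.13 CPM in mutants at 25 °C (SD, n = 3), against 1.74 ± 0.632 CPM at 20 °C (SD, n = 4), a log2 fold change of 1.80 ± 0.30 (SE, FDR = 0.00033). In N2 it averaged 5.90 ± 1.28 CPM at 25 °C, against 1.70 ± 0.617 CPM at 20 °C (SD, n = 4 each), a log2 fold change of 1.81 ± 0.30 (SE, FDR = 0.00012). *skr-4* changed by 0.90 in mutants and 0.86 in N2 on the log2 scale. In total 3 of 5 ligase genes were higher at 25 °C in each strain and 0 lower, where 13.6% of all genes were called higher in mutants and 23% in N2. Besides *skr-4* and *skr-5*, the third gene was *rcs-1* in mutants and *skr-3* in N2. The interaction called neither (FDR = 0.31 for *rcs-1* and 0.76 for *skr-3*).

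**Figure D5:**
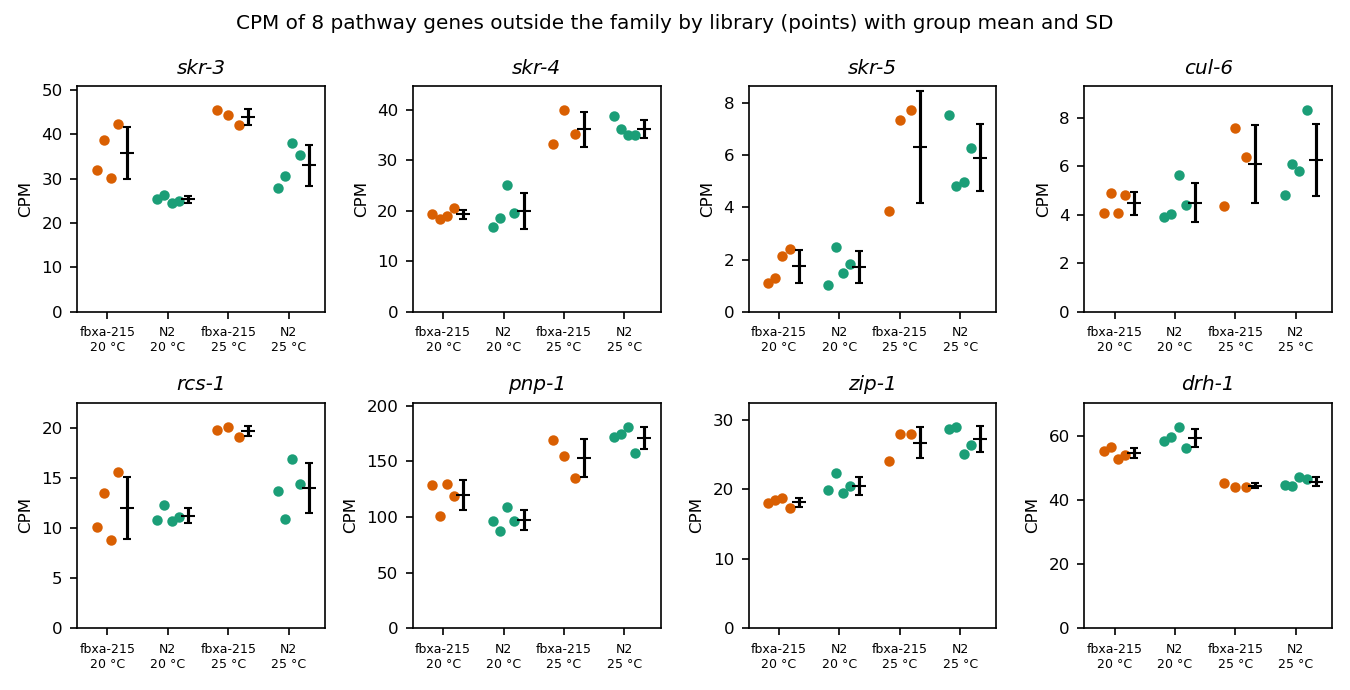
CPM of 8 genes of the response outside the *pals-* family in each library (points, mutants in orange, N2 in green), with the group mean and SD in black. *skr-3* is higher in mutants at both temperatures, *skr-4* and *skr-5* are higher at 25 °C in both strains, and *drh-1* is lower at 25 °C.

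Genes of antiviral RNA interference and of heat stress were called in the opposite direction between temperatures. Of 5 RNA interference genes, 3 were lower at 25 °C in mutants and 5 in N2, and 0 were higher. Of 7 tested heat and protein stress genes, 6 were lower at 25 °C in mutants and 7 in N2, and 0 were higher. *hsp-16.1* had 0 counts in every library. Of all genes tested, 25.5% were called between temperatures in mutants and 45.1% in N2. Of those called, 53.3% in mutants and 51.0% in N2 were higher at 25 °C, and the rest lower. Between strains 2 of these 7 were higher in mutants at 20 °C and 1 at 25 °C. There 13.5% of all genes were called at 20 °C and 12.1% at 25 °C.

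Several intestine markers were called in the same direction as the called *pals-* genes, and vitellogenins, also made in the intestine, in the opposite one. Of the 6 intestine markers, 3 were higher in mutants than in N2 at 20 °C, where *pals-23* was called, and their summed level was 1500 to 1950 CPM in mutants and 1350 to 1480 CPM in N2. Between temperatures 3 were higher at 25 °C in mutants and 5 in N2, and 0 were lower. Their sum at 25 °C was 2190 to 2390 CPM in mutants and 1730 to 2040 CPM in N2. Between strains at 25 °C, 4 intestine markers were higher in mutants and 1 was lower. There 0 of the 16 tested *pals-* genes were called, and their median log2 fold change was -0.01. Of 6 vitellogenins, 3 were lower in mutants than in N2 at 20 °C and 0 were called at 25 °C, and 1 was lower at 25 than at 20 °C in mutants and 4 in N2. Their sum was 64900 to 79700 CPM in mutants and 81000 to 98500 CPM in N2 at 20 °C, and 63000 to 74900 CPM in mutants and 65400 to 76700 CPM in N2 at 25 °C. Of 6 oocyte markers, 4 were lower at 25 than at 20 °C in mutants and 6 in N2, with sums of 2050 to 2150 CPM at 25 °C and 2460 to 2650 CPM at 20 °C in mutants, and of 2140 to 2680 CPM at 25 °C and 3300 to 4170 CPM at 20 °C in N2. Of 6 germline markers, 5 were lower at 25 °C in mutants and 4 in N2. Of 4 muscle markers, 3 were higher at 25 °C in mutants and 1 in N2, and of 4 neuron markers 2 and 1. Of 28 tested sperm genes (*msp-*), 11 were lower and 0 higher at 25 °C in mutants, and 4 were lower and 7 higher in N2. Between strains 7 of them were lower in mutants at 25 °C, and 0 were called at 20 °C. Over all genes, 25.5% were called between temperatures in mutants and 45.1% in N2, and the shares between strains are given above. Of these markers only *msp-58* was at 0 in every library. The part of these shifts in the *pals-* values was not tested.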

How the data were processed

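The authors trimmed reads with Trimmomatic (version 0.39), quantified transcripts with Salmon (version 1.5.1) and summed them per gene, per the paper's methods and the submitters' processing notes, which name WBcel235. The transcriptome release is not given in the sources used here. The deposited tables hold estimated counts without normalization. The libraries were not directional. The authors' DESeq2 tables hold deposited log2 expression values per library, and columns of their own comparison (mean, fold change, adjusted p); only gene symbols were taken from them. No column of an unknown sample was found (0).

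Estimated counts were rounded to whole numbers. Of the 570 member values, 8 were not whole (tolerance 1e-06). edgeR (version 4.0.16) in R (version 4.3.3) was run with the quasi-likelihood F-test on TMM-normalized libraries after filterByExpr (minimum count 10, total 15) and with robust dispersions, separately at 20 °C and 25 °C for the strains, and in 1 fit over 15 libraries for temperature and the interaction. p-values were adjusted over all tested genes. SE is the absolute log2 fold change divided by the square root of F and is approximate. CPM used TMM library sizes over all 15 libraries. For exon lengths and positions the Ensembl annotation of WBcel235 was used, with 21714 of 21882 genes matched, among them all 38 members. Exons of 9 members overlap another counted gene, and reads of similar members could have been split between them.

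Members were found by name, but the family and the gene lists were selected with earlier results of these data known. Values are given by library for the regulators *pals-16*, *pals-17*, *pals-20*, *pals-22*, *pals-25*, for *pals-5*, for the 3 members highest per length and for every member called; *pals-1*, *pals-3*, *pals-14*, *pals-26*, *pals-31* and *pals-38* were named after their values were seen. Alternatives were DESeq2 (version 1.42.0), scaling by RLE or by library size alone, no filter, at least 10 counts in every library, unrounded counts, the replicate number as a block, other sets of libraries in the fit, a 2-fold threshold and leaving out each library. The tests were checked on simulated data with large changes in genes of higher counts than most members had. The check does not cover small folds or low counts. No pair of libraries within a group was a duplicate.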

Additional observations from a re-analysis of the deposited data

Results flagged for a closer look

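Dixon's criterion was applied, in sets of 4 libraries, to the regulators, *pals-5*, the members called and the summed family. Among these, 1 value stood apart from the others of its group. Members outside this set were not examined. Among those, *pals-2* and *pals-12* also each had 1 count in a single mutant library at 20 °C and 0 in the others of that group. *pals-5* had 0.0757 CPM in replicate 2 of the mutants at 20 °C, which is 1 count, and 0 in the other 3 libraries of that group. A single count is within the 3-count limit. Of 41 sets examined, chance alone flags about 1 in 20. No member's change with temperature differed between strains at an FDR under 0.05.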

How the results depend on the processing

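Members called kept their direction under all alternatives run. With the replicate number as a block, 0 members were called at 20 °C (*pals-23*, log2 fold change 0.56, FDR = 0.10), and the calls of all genes fell to 528 at 20 °C, 391 at 25 °C and 20 for the interaction, against 1769, 1634 and 205. Within a temperature, libraries of the 2 strains with the same number mostly did not deviate together. The correlations were 0.211, -0.303, -0.092 and -0.241 at 20 °C, and -0.204, -0.123 and -0.078 at 25 °C. N2 at 20 °C and mutants at 25 °C gave 0.367, 0.187 and 0.247, and mutants across temperatures gave 0.226, -0.25 and -0.187. N2 across temperatures gave -0.146, -0.312, -0.038 and -0.354. N2 at 25 °C and mutants at 20 °C gave 0.011, 0.22, -0.188 and -0.229. So few values do not settle whether the numbers pair libraries. A 2-fold threshold left 0 members at 20 °C and 2 between temperatures in mutants. At least 10 counts in every library left 3 members called between temperatures in N2 and 2 in mutants, since fewer members were tested. Without a filter 8 and 5 were called. DESeq2 and library size alone each called 7 in N2 and 4 in mutants. The member added in N2 was *pals-32*, with a log2 fold change of 1.11 ± 0.46 (SE, FDR = 0.056) in the main fit. Leaving out 1 library gave 0 to 2 members called between strains at 20 °C, 0 to 1 at 25 °C, 5 to 7 between temperatures in N2, 4 to 5 in mutants and 0 to 0 for the interaction. It gave mean summed levels of 32.2 to 34.4 CPM (mutants, 20 °C), 25.8 to 27.7 CPM (N2, 20 °C), 49.7 to 50.8 CPM (mutants, 25 °C) and 46.0 to 49.5 CPM (N2, 25 °C). With library size alone the mean for mutants at 25 °C was 52.0 CPM, against 50.2 CPM.

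Uncalled values near 0 changed sign. With library size alone *pals-22* stood at 0.05 and *pals-25* at 0.05 in N2, and *pals-22* at 0.01 in mutants (0.03 with the block), between temperatures. *pals-17* in N2 stood at -0.03 with RLE factors, -0.03 with DESeq2, -0.02 unrounded and -0.01 with N2 libraries only. Leaving out 1 library moved the log2 difference between strains at 20 °C over -0.16 to 0.20 for *pals-22*, -0.23 to 0.09 for *pals-25* and -0.01 to 0.29 for *pals-17*, and at 25 °C over -0.05 to 0.19 for *pals-23* and -0.30 to 0.39 for *pals-16*. Between temperatures in N2 it moved *pals-22* over -0.15 to 0.24, *pals-25* over -0.12 to 0.13 and *pals-17* over -0.15 to 0.11, and in mutants *pals-22* over -0.13 to 0.03 and *pals-25* over -0.35 to 0.02. The cause was not tested.

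Counts of all genes called depended on the setting. A 2-fold threshold left 195 (20 °C), 260 (25 °C), 922 (N2), 444 (mutants) and 43 (interaction). The fit over 15 libraries gave 2746 at 20 °C, and for the interaction DESeq2 gave 1013 and the stricter filter 338. With N2 libraries alone 4 members were called between temperatures in N2 (*pals-6*, *pals-18*, *pals-23* and *pals-24*), with *pals-37* and *pals-39* untested. With library size alone the share of called genes that were higher was 68.7% at 20 °C (57.2% with TMM), 62.6% between temperatures in N2 (51.0%) and 65.5% in mutants (53.3%); the called members were higher under both. Depth limits the 22 untested members, whose counts were mostly near the 3-count limit.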
